A study of Rattus norvegicus with 6 samples.

Results

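Chemokines are small secreted proteins that direct the movement of white blood cells, and chemokine receptors are the surface proteins that sense them. The genes described here are the rows of a rat liver expression table whose symbol begins with Ccl, Cxcl, Cx3cl, Xcl, Ccr, Cxcr, Cx3cr, Xcr or Ackr and a number, leaving out Ccrl2, and that had at least 10 counts summed over the 6 libraries. Of 32623 genes in the table, 55 matched by symbol and 53 had enough counts: 33 ligands and 20 receptors. The other two were Ccl25, with 5 counts in all, and Cxcr1, with 3. Ccr2 and Ackr1 were not analysed here.

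RNA was sequenced from rat liver tissue after embolization, a procedure that blocks the vessels feeding a tissue. The control group received blank microspheres (GM, 3 libraries), and the other group received zinc sulfide microspheres (GZM, 3 libraries), so every sample had been embolized. The labels name the tissue as liver and give no strain, age, sex or time after the procedure, nor whether a piece held tumour. They number replicate biosamples but do not say whether each came from its own animal, and p-values then measure the spread between these samples only, which may be technical.

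A ligand binds one or a few receptors, and each receptor marks certain cells: CCR2 and CX3CR1 mark monocytes, CXCR2 neutrophils, CXCR3 and CXCR6 activated T and natural killer cells, CCR3 eosinophils, and CCR7 dendritic and naive T cells. Atypical receptors (Ackr genes) take up chemokines without the usual signal. In liver, chemokines are made by hepatocytes, endothelial cells, stellate cells and the resident macrophages called Kupffer cells, as well as by the leukocytes they attract.

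Gene counts summed to between 13443115 and 16604067 per library. Levels are given in CPM, counts scaled to a common library size, with TMM factors, which allow for a few abundant genes taking a larger share of one library. All 8 listed hepatocyte markers rose in GZM (6 with library totals), with summed levels of 69196 to 85573 CPM against 10003 to 35496 CPM in GM, and all 6 markers of dividing cells fell (132 to 149.7 CPM against 375 to 1009). Within GM, library 3 had the most hepatocyte and the fewest dividing-cell transcripts. Since these are pieces of tissue, fewer cells of a type and less RNA per cell cannot be told apart. Scaling by library totals instead of TMM factors, the log2 fold change of all genes moved by a median of -0.84, and unless library totals are named, each change is on the TMM scale.

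The comparison asks which chemokine signals and which receptors differed between tissue embolized with zinc sulfide and with blank microspheres. Monocyte-attracting ligands (Ccl2, Ccl7, Ccl12) and the T-cell attractant Cxcl10 were lower in GZM, by 3.93 to 7.27-fold. Ccl9, the neutrophil attractant Cxcl1 and the eosinophil attractants Ccl11 and Ccl24 were higher, by 5.22 to 9.82-fold. Of the 53 genes, 44 passed edgeR's low-count filter and were tested. With edgeR's quasi-likelihood test and a threshold of 0.05 on the adjusted p, 8 rose and 13 fell, where 22.2% of all 14298 tested genes rose and 21.7% fell (44.0% in either direction). The share of the tested chemokine and receptor genes that changed, 47.7%, was thus close to that of all genes. The groups did not overlap for 21 of the 44 genes, against 58.1% of all tested genes. With library totals 4 rose and 15 fell, where 9.2% of all genes rose and 59.5% fell. Among 29 tested ligands 5 rose and 10 fell, their median log2 fold change being 0.02, and among 15 tested receptors 3 rose and 3 fell, with a median of -0.41. With library totals these medians were -0.81 and -1.21. The median over all tested genes was -0.09, and -0.92 with library totals. Without 1 library the number of changed receptors ranged from 2 to 5, the lowest values being 2 without GM 1 or GZM 2 and 3 without GM 2 or GZM 3. Without GZM 2 the number over ligands and receptors together was 13.

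**Figure D1:**
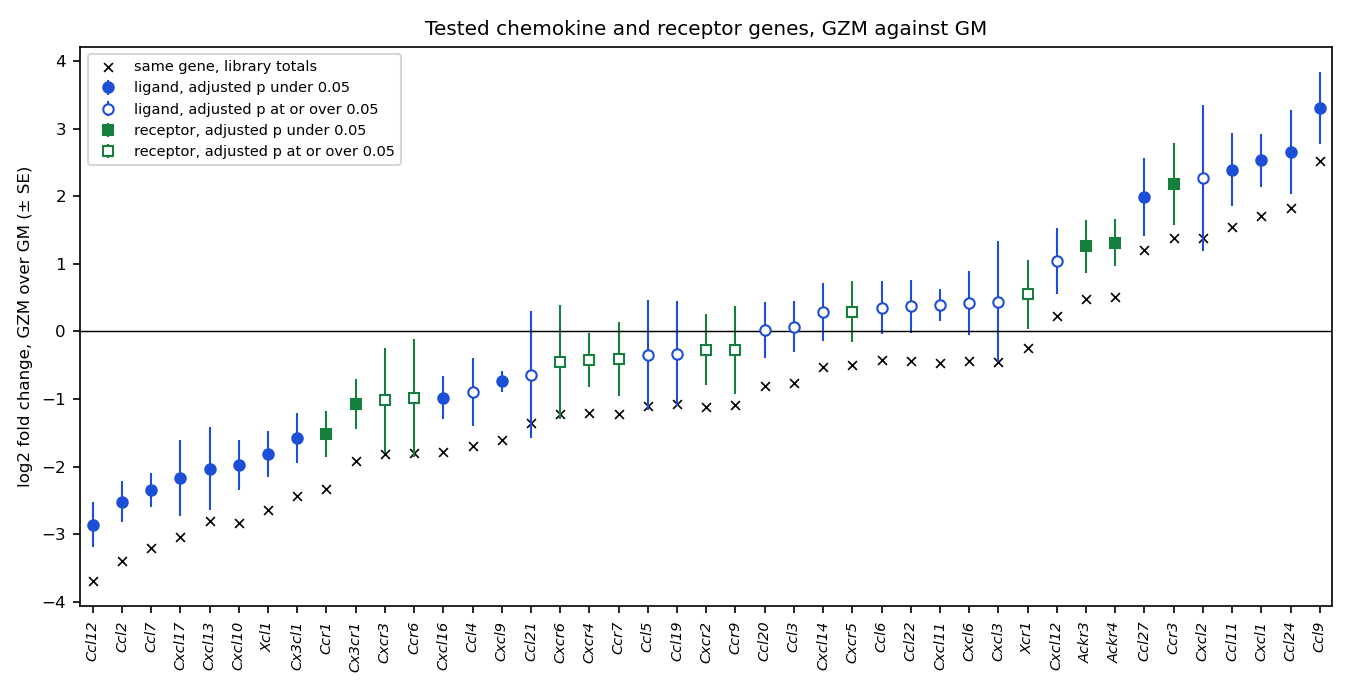
Log2 fold change (GZM over GM, ± SE, n = 3 libraries each) of 43 of the 44 tested genes, with filled symbols for genes that passed an adjusted p of 0.05 and crosses for the same gene scaled by library totals. Ligands run from Ccl12 at -2.86 to Ccl9 at 3.30, receptors from Ccr1 at -1.52 to Ccr3 at 2.18, and the crosses lie below the symbols throughout.

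The 3 ligands of the monocyte receptor CCR2 fell together and did not overlap between groups. Ccl2 (monocyte chemoattractant protein 1, ENSRNOG00000007159) stood at 143.9, 235 and 108 CPM in GM 1, 2 and 3 and at 25.2, 32.1 and 27.9 CPM in GZM 1, 2 and 3. Each GZM library was thus far below the lowest GM library. The level was 5.72-fold lower in GZM (28.4 ± 3.47 against 162 ± 65.6 CPM, SD, n = 3 each), with a log2 fold change of -2.52 ± 0.30 SE and an edgeR adjusted p of 0.00218. Ccl7, a related monocyte attractant, measured 55.8, 69.4 and 49.1 CPM in GM and 15.2, 8.39 and 10.5 CPM in GZM (log2 fold change -2.35 ± 0.25, adjusted p = 0.00192). Ccl12, the rodent counterpart with the same target cell, measured 36.8, 36.2 and 43.5 CPM in GM and 8.42, 4.34 and 3.38 CPM in GZM (-2.86 ± 0.33, adjusted p = 0.00215). All 3 kept their call in each of the 15 alternative analyses. Of 8 listed markers of monocytes and macrophages 6 fell, with summed levels of 3325 to 5391 CPM in GM and 1146 to 1742 CPM in GZM. Of 5 Kupffer cell markers 3 rose (1 with library totals) and 1, Cd163, fell. The part of these cells in the change of the CCR2 ligands was not tested.

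The ligands of CXCR3, which are induced by interferon gamma and attract activated T cells, did not move alike. Cxcl10 (ENSRNOG00000022256) measured 88.3, 192 and 100.4 CPM in GM and 22.9, 46.5 and 27.6 CPM in GZM, a 3.93-fold fall (log2 fold change -1.97 ± 0.37 SE, adjusted p = 0.00558). Cxcl9 fell less, from 68.0, 72.4 and 55.3 CPM to 41.4, 41.6 and 34.1 CPM (-0.74 ± 0.16, adjusted p = 0.00949). Cxcl11 measured 25.8, 39.2 and 22.8 CPM in GM and 38.8, 43.2 and 33.1 CPM in GZM, groups that overlapped (0.39 ± 0.23, adjusted p = 0.199, and -0.47 with library totals). Without GM 2, the GM library with the highest Cxcl11, the gene passed as higher (0.66, adjusted p = 0.0213, where its alternatives ran from 0.0213 to 0.515). The differences between the 3 ligands were not tested. Their receptor gene Cxcr3 measured 4.58, 5.11 and 11.0 CPM in GM and 8.12, 1.32 and 0.864 CPM in GZM. GZM 1 lay within the GM range and the other GZM libraries below it, so the gene did not pass (-1.02 ± 0.78, adjusted p = 0.318). Without GZM 1 it was called lower (-2.66, adjusted p = 0.0135, over a range of 0.00388 to 0.637).

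The promoters of the CXCR3 ligands are shown because Cxcl9 and Cxcl10 passed as lower and their neighbour Cxcl11 did not pass, and those of Cxcl1 and Ccl9 because they were the most abundant ligands that rose. The windows run from 250 bases before to 50 bases after the annotated start, 5′ to 3′ on the gene's strand, from RefSeq on GRCr8. Capitals mark matches on either strand to the interferon-stimulated response element (GAAA, any 2 bases, GAAA), the interferon gamma activated site (TTCNNNGAA), the kappaB consensus and the AP-1 site (TGANTCA).
Cxcl9, chr14:16006916-16007215, plus strand: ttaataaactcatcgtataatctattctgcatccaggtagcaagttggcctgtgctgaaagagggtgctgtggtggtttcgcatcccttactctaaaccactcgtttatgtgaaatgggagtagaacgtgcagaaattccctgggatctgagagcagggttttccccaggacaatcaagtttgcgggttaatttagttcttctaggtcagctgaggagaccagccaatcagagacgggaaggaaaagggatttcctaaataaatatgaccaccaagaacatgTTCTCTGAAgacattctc
Cxcl10, chr14:15988816-15989115, plus strand: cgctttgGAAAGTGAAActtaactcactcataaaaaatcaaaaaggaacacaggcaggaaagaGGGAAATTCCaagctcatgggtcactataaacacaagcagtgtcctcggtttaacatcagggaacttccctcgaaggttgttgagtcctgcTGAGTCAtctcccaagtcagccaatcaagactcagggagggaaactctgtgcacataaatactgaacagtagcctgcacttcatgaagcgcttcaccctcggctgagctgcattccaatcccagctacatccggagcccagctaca
Cxcl11, chr14:15973478-15973777, plus strand: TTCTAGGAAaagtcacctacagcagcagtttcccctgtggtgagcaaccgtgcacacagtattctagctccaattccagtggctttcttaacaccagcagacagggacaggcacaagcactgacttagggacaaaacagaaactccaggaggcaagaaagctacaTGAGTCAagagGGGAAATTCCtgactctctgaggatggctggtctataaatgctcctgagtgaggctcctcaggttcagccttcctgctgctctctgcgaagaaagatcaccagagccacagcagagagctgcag
Cxcl1, chr14:17479272-17479571, minus strand: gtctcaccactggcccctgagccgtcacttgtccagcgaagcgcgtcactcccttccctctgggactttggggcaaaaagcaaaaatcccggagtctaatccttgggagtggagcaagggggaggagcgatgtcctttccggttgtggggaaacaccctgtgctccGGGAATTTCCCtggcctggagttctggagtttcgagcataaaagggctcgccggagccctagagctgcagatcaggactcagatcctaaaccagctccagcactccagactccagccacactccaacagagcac
Ccl9, chr10:68868828-68869127, minus strand: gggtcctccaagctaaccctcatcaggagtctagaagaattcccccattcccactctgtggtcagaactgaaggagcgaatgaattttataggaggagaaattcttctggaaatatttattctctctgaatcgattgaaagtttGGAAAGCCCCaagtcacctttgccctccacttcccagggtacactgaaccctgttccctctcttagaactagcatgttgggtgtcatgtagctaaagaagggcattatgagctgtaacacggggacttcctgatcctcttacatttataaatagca
The Cxcl10 window held a response element match, a kappaB match and an AP-1 match, the Cxcl11 window an activated site, a kappaB and an AP-1 match, and the Cxcl9 window an activated site just after the start. Cxcl1 held 2 overlapping kappaB matches, and the match of Ccl9 begins 106 bases before the start. Matches to different motifs did not overlap in these windows. Of the 53 genes, 40 had a window in the RefSeq table. Ccl2, Ccl3, Ccl4, Ccl5, Ccl11, Cxcl3, Ccr4, Ccr7, Ccr8, Ccr9, Ccr10 and Cxcr5 were among those without one. Among the 40, 8 windows held a kappaB match, against 4.19% of 33365 different promoter windows of the same length in the table. These were Ccl9, Ccl20, Cxcl1, Cxcl2, Cxcl6, Cxcl10, Cxcl11 and Ccr3. The response element was found in 2 windows (Ccl19 and Cxcl10; 3.92% of all windows), the activated site in 6 (8.88%) and the AP-1 site in 7 (7.34%). Of the 8 genes with a kappaB match 3 rose, 1 fell and 4 did not pass. Of all family genes with a window 7 rose, 11 fell and 16 did not pass. Among all tested genes 22.2% rose and 21.7% fell, and a link between matches and direction was not tested. A match is a description of these letters and not evidence of binding.

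Cxcl1 led the ligands of the neutrophil receptor CXCR2. Cxcl1 (ENSRNOG00000002802) measured 15.1, 19.7 and 22.0 CPM in GM and 50.6, 157 and 120.4 CPM in GZM, 5.78-fold higher with no overlap (log2 fold change 2.53 ± 0.39 SE, adjusted p = 0.00318). Its call was lost only in limma without a low-value filter (adjusted p = 0.0955, over a range of 1.25e-08 to 0.0955). Its relative Cxcl2 varied more, at 12.4, 2.13 and 1.03 CPM in GM and 2.31, 35.6 and 37.0 CPM in GZM. GZM 2 and GZM 3 were above every GM library, but GZM 1 was not, and the gene did not pass (2.27 ± 1.08, adjusted p = 0.124). It was called higher without GM 1 (3.99, adjusted p = 0.043) or without GZM 1 (2.81, adjusted p = 0.0438), over a range of 0.0142 to 0.768. Cxcl3 measured 11.7, 6.89 and 1.29 CPM in GM and 1.20, 10.9 and 14.6 CPM in GZM (0.44 ± 0.89, adjusted p = 0.708). Its sign was opposite with library totals (-0.45). Cxcl6 measured 18.8, 7.15 and 5.71 CPM against 10.7, 11.4 and 20.3 CPM (0.42 ± 0.48, adjusted p = 0.493; -0.44 with library totals). The receptor gene Cxcr2 was low in both groups, at 1.13 to 2.22 CPM in GM and 0.501 to 2.04 CPM in GZM (-0.27 ± 0.52, adjusted p = 0.692). Of 6 tested neutrophil markers 1 fell, Csf3r (2 with library totals, Csf3r and Mpo). The listed markers S100a8 and S100a9 did not pass (0.56, adjusted p = 0.355, and 0.68, adjusted p = 0.25), and the summed level of the list was 70.0 to 102 CPM in GM and 53.5 to 90.9 CPM in GZM.

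Ccl9 (macrophage inflammatory protein 1 gamma, a rodent ligand of CCR1, ENSRNOG00000028548) was the most abundant chemokine transcript in GZM, and its rise was the largest among the 44 tested genes. It measured 182, 132 and 395 CPM in GM and 1243, 2812 and 2913 CPM in GZM. GZM 1 had less than the other GZM libraries but more than GM 3, the highest GM library. The log2 fold change was 3.30 ± 0.53 SE (9.82-fold, adjusted p = 0.00345), and the call held in all 15 alternatives. Without GM 3 the log2 fold change was 3.92, and without both GM 3 and GZM 1 it was 4.23. Ccl6, its close relative and neighbour, was about as abundant as Ccl9 in GM. It measured 222, 135 and 434 CPM in GM and 374, 293 and 338 CPM in GZM, overlapped between groups and did not pass (0.35 ± 0.39, adjusted p = 0.494; -0.43 with library totals). When GM 3, where Ccl6 was most abundant, was left out, it was called higher (0.94, adjusted p = 0.016, over a range of 0.016 to 0.952). Ccl3, Ccl4 and Ccl5, inflammatory ligands that attract T cells and myeloid cells, did not pass either. Ccl3 measured 17.3, 8.43 and 13.5 CPM in GM and 7.42, 15.8 and 17.8 CPM in GZM (0.07 ± 0.38, adjusted p = 0.892; -0.76 with library totals). Ccl4 measured 7.67, 11.1 and 21.5 CPM against 12.0, 5.75 and 3.93 CPM (-0.90 ± 0.50, adjusted p = 0.178), and was called lower with library totals (-1.69, adjusted p = 0.0111, over a range of 0.0111 to 0.536). Ccl5 measured 7.52, 14.3 and 40.3 CPM against 36.6, 5.66 and 6.52 CPM (-0.35 ± 0.82, adjusted p = 0.744). For Ccl4 and Ccl5 the groups overlapped, with GM 3 and GZM 1 highest in their groups.

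The eosinophil axis of CCR3 was higher on both sides in GZM, but its receptor rested on few counts. Ccl11 (eotaxin 1) measured 1.78, 0.383 and 0.617 CPM in GM and 4.71, 4.43 and 5.42 CPM in GZM, a 5.22-fold rise with no overlap (log2 fold change 2.39 ± 0.54 SE, adjusted p = 0.0106). GM 1 was the highest GM library for both eotaxins, and without it the log2 fold change was 3.28 for Ccl11 (adjusted p = 0.0157) and 3.24 for Ccl24 (adjusted p = 0.0221). Ccl24 (eotaxin 2) measured 7.23, 2.21 and 3.60 CPM in GM and 9.13, 28.5 and 44.0 CPM in GZM (2.65 ± 0.62, adjusted p = 0.0116). GZM 1 was only just above GM 1 for Ccl24. Ccl24 did not pass in limma (adjusted p of 0.0611 to 0.259, over a range from 3.47e-05), nor did Ccl11 in limma without a filter (0.131, over a range from 7.87e-05). Ccr3 measured 0.723, 0.426 and 0.925 CPM in GM, from 43 counts, and 0.903, 4.05 and 4.40 CPM in GZM, from 108 counts. GZM 1 lay within the GM range, and the call (2.18 ± 0.61, adjusted p = 0.0231) was lost without GM 1 (adjusted p = 0.0722), GM 2 (0.067), GZM 2 (0.0777) or GZM 3 (0.078) and with library totals (1.38, adjusted p = 0.068), over a range of 0.00137 to 0.433. The third eotaxin gene Ccl26, with 35 counts in all, was not tested.

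**Figure D2:**
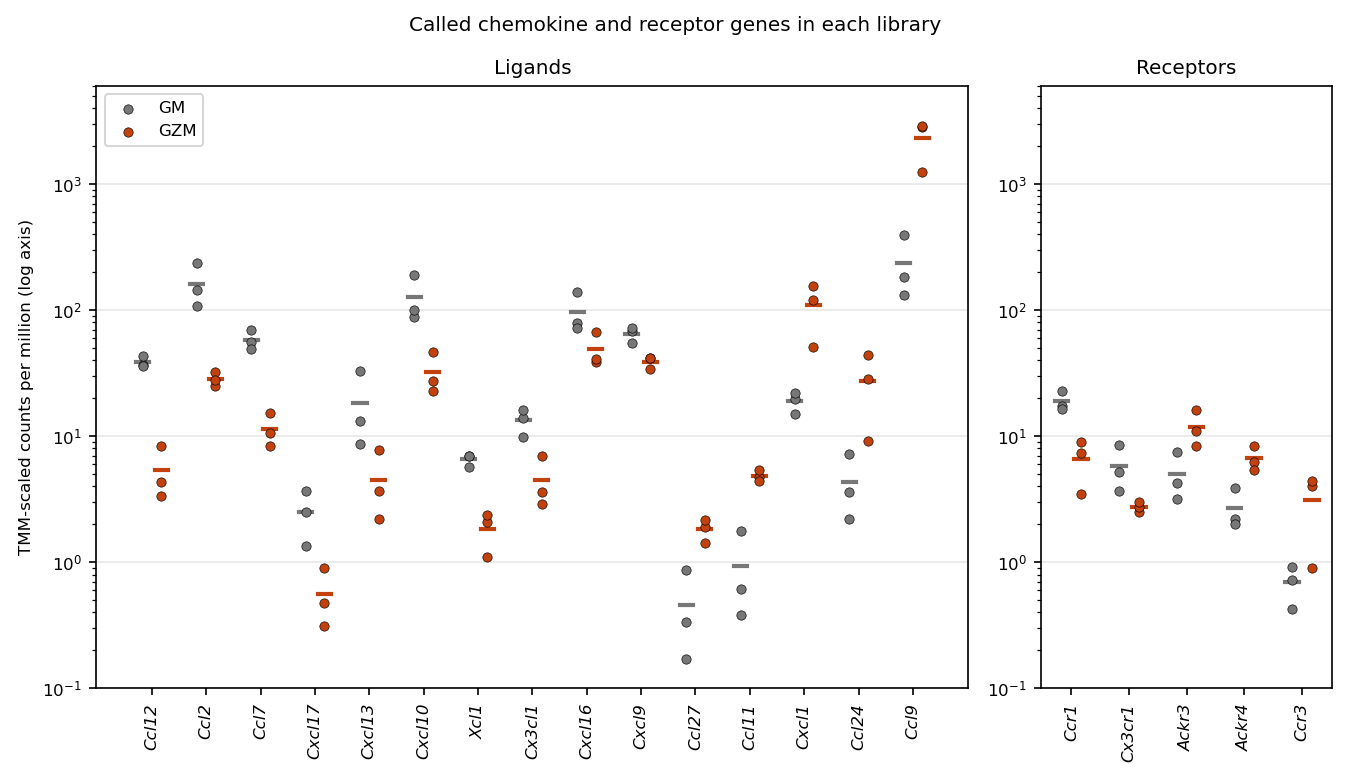
TMM-scaled CPM on a log axis for 15 ligand and 5 receptor genes that passed, with 1 point per library and a bar at the mean of 3. Ccl9 lies between 1243 and 2913 CPM in GZM and at most at 395 CPM in GM, and Ccr1 lies at 16.5 to 23.0 CPM in GM and at 3.51 to 8.95 CPM in GZM.

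The receptors of myeloid cells Ccr1 and Cx3cr1 fell. Ccr1, with which these cells sense Ccl9 and Ccl3, measured 17.5, 16.5 and 23.0 CPM in GM and 3.51, 7.35 and 8.95 CPM in GZM (log2 fold change -1.52 ± 0.34 SE, adjusted p = 0.0101). The groups did not overlap, and the call held in all 15 alternatives. Between the groups Ccl9 thus rose and Ccr1 fell, whereas within each group the libraries had the same order for both genes. Cx3cr1, a receptor of patrolling monocytes, measured 8.54, 3.70 and 5.19 CPM in GM and 2.51, 2.73 and 2.98 CPM in GZM (-1.08 ± 0.37, adjusted p = 0.0447). Leaving out GM 1 ended its call (-0.69, adjusted p = 0.17), as did leaving out GM 3 (0.0545), GZM 1 (0.107), GZM 2 (0.123), GZM 3 (0.0965) or GM 3 with GZM 1 (0.0893), over a range of 0.00342 to 0.17. The membrane-anchored ligand Cx3cl1 (fractalkine) fell as well, from 13.9, 16.2 and 9.92 CPM to 6.92, 2.92 and 3.61 CPM (-1.58 ± 0.37, adjusted p = 0.0113). The macrophage markers given above fell between the groups, as these receptors did. Within GZM their summed level was 1742, 1146 and 1371 CPM, highest in GZM 1, where Ccr1 and Cx3cr1 were lowest. Within GM the markers and Ccr1 were highest in GM 3, and Cx3cr1 in GM 1. The part of these cells in the fall of the receptors was not tested.

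Ackr3 and Ackr4, 2 of the 3 atypical receptors, rose on the TMM scale. Ackr3, which takes up CXCL12 and CXCL11, measured 4.29, 3.15 and 7.51 CPM in GM and 8.42, 11.0 and 16.3 CPM in GZM (1.26 ± 0.39 SE, adjusted p = 0.032). Ackr4, which takes up the CCR7 and CCR9 ligands, measured 2.22, 2.00 and 3.86 CPM in GM and 8.42, 6.22 and 5.42 CPM in GZM (1.31 ± 0.35, adjusted p = 0.0194). Neither passed with library totals (0.48, adjusted p = 0.268, and 0.51, adjusted p = 0.19). Ackr3 also lost its call without GM 1 (adjusted p = 0.11), GM 2 (0.0806), GZM 2 (0.0757) or GZM 3 (0.12), and Ackr4 without GM 1 (0.0741), GM 2 (0.0514), GZM 1 (0.0601) or GZM 2 (0.0553). Over all alternatives the adjusted p ran from 0.00198 to 0.631 for Ackr3 and from 0.00184 to 0.265 for Ackr4. Cxcl12, which holds leukocytes and stem cells through CXCR4, measured 167, 64.8 and 164 CPM in GM and 464, 179.9 and 169 CPM in GZM. On the TMM scale the groups only just did not overlap (167 CPM in GM 1 and 169 CPM in GZM 3). The gene did not pass (1.04 ± 0.49, adjusted p = 0.119) here or in any of the 15 alternatives, and with library totals its log2 fold change was 0.22 (adjusted p = 0.684). GZM 1 stood far above the other GZM libraries and GM 2 far below the other GM libraries; without GZM 1 the log2 fold change was 0.41 (adjusted p = 0.443, over a range of 0.0594 to 1.0). Its signalling receptor gene Cxcr4 measured 26.0, 21.2 and 61.1 CPM in GM and 34.4, 23.6 and 22.5 CPM in GZM (-0.43 ± 0.40, adjusted p = 0.405), and was called lower with library totals (-1.21, adjusted p = 0.0132, over a range of 0.0132 to 0.995).

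Of 5 other ligands that passed, Xcl1, Cxcl13, Cxcl16 and Cxcl17 fell and Ccl27 rose. Xcl1 (lymphotactin), made by natural killer and T cells, measured 5.74, 6.94 and 6.99 CPM in GM and 1.10, 2.07 and 2.36 CPM in GZM (-1.81 ± 0.34 SE, adjusted p = 0.00546). Its receptor gene Xcr1, of cross-presenting dendritic cells, measured 1.69, 2.81 and 4.27 CPM against 7.32, 3.02 and 2.59 CPM (0.55 ± 0.51, adjusted p = 0.401; -0.25 with library totals). Cxcl13, which draws B cells, measured 13.2, 8.68 and 33.2 CPM in GM and 7.72, 3.68 and 2.20 CPM in GZM (-2.03 ± 0.61, adjusted p = 0.0289). Its call was lost without GM 1 (adjusted p = 0.0518), GM 3 (-1.25, adjusted p = 0.0626), GZM 2 (0.0984) or GZM 3 (0.0862), over a range of 0.00237 to 0.0984, and without GZM 1 the value was -2.65. Its receptor gene Cxcr5 stood at 1.01 to 1.75 CPM in GM and 0.848 to 2.11 CPM in GZM (0.29, adjusted p = 0.613; -0.50 with library totals). Cxcl16, the membrane-bound ligand of CXCR6, measured 79.2, 71.9 and 140.2 CPM in GM and 67.3, 39.1 and 41.2 CPM in GZM (-0.98 ± 0.32, adjusted p = 0.037). GM 2 and GZM 1 lay close together. The call was lost without GM 1 (adjusted p = 0.0605), GM 3 (-0.59, adjusted p = 0.0761), GZM 2 (0.13) or GZM 3 (0.118), over a range of 0.00137 to 0.13. Cxcl17, a mucosal chemokine, measured 2.51, 3.66 and 1.34 CPM against 0.903, 0.471 and 0.314 CPM (-2.17 ± 0.56, adjusted p = 0.0162), and lost its call without GZM 2 (0.0639) or GZM 3 (0.0605), over a range of 0.00249 to 0.0639. Ccl27, a skin-homing chemokine, rose from 0.338, 0.170 and 0.874 CPM to 1.91, 2.17 and 1.41 CPM (1.99 ± 0.58, adjusted p = 0.0265). That call was lost with library totals (1.21, adjusted p = 0.0732) and without GM 1 (0.0944), GM 2 (0.0553), GZM 1 (0.056) or GZM 2 (0.0852), over a range of 0.0041 to 0.171, and without GM 3 the value was 2.85.

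Some genes shared a pattern of differences between the libraries of one group. Of the 23 tested chemokine and receptor genes that did not pass, 12 were highest in GM 3 within GM and also highest in GZM 1 within GZM. These were Ccl4, Ccl5, Ccl6, Ccl19, Ccl21, Ccr6, Ccr7, Cxcr3, Cxcr4, Cxcr5, Cxcr6 and Xcr1, picked out after their values were seen. Over all 44 tested genes of the family the number was 16 (36.4%), against 20.1% of all tested genes. The others among the 16 were Ackr4, Ccl12, Cxcl13 and Cxcl16, which passed. Ccl21, which guides CCR7-bearing cells into lymphoid tissue, measured 3.47, 2.81 and 29.9 CPM in GM and 14.6, 3.77 and 4.79 CPM in GZM (-0.64 ± 0.94 SE, adjusted p = 0.597). Ccl19, the other CCR7 ligand, measured 2.22, 2.98 and 10.9 CPM against 8.93, 1.98 and 1.96 CPM (-0.33 ± 0.78, adjusted p = 0.748). Ccr7 itself measured 2.31, 2.04 and 4.01 CPM against 3.81, 1.70 and 0.864 CPM (-0.41 ± 0.55, adjusted p = 0.569). Cxcr6, a receptor of liver-resident lymphocytes, measured 2.22, 1.83 and 7.25 CPM against 6.32, 1.32 and 0.707 CPM (-0.45 ± 0.84, adjusted p = 0.681). The listed T-cell markers, averaged on the log2 CPM scale and centred over the 6 libraries, stood at 0.16, 0.43 and 1.34 in GM and 0.94, -1.40 and -1.48 in GZM. Of these 8 markers 1 fell (Cd8a; 4 with library totals), and their summed levels ranged from 267 to 511 CPM in GM and from 89.9 to 264 CPM in GZM. Cxcl2, Cxcl3, Cxcl6 and Cxcr2 had the opposite pattern, lowest in both GM 3 and GZM 1. That made 5 of the 44 tested genes with Ccl2 (11.4%), against 18.2% of all tested genes. Of the other 13 marker lists 6 were also highest in both GM 3 and GZM 1: natural killer cells (1.56 and 0.30), B cells (0.74 and 0.77), plasma cells (0.82 and 0.62), monocytes and macrophages (1.11 and -0.31), dendritic cells (0.36 and 0.23) and platelets (0.50 and 0.50). The part of these cells in the levels was not tested. Without both GM 3 and GZM 1, Cxcr3 was called lower (-2.12, adjusted p = 0.00388) and Cxcl2 and Ccl6 higher (2.37, adjusted p = 0.0142, and 0.86, adjusted p = 0.0241).

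**Figure D3:**
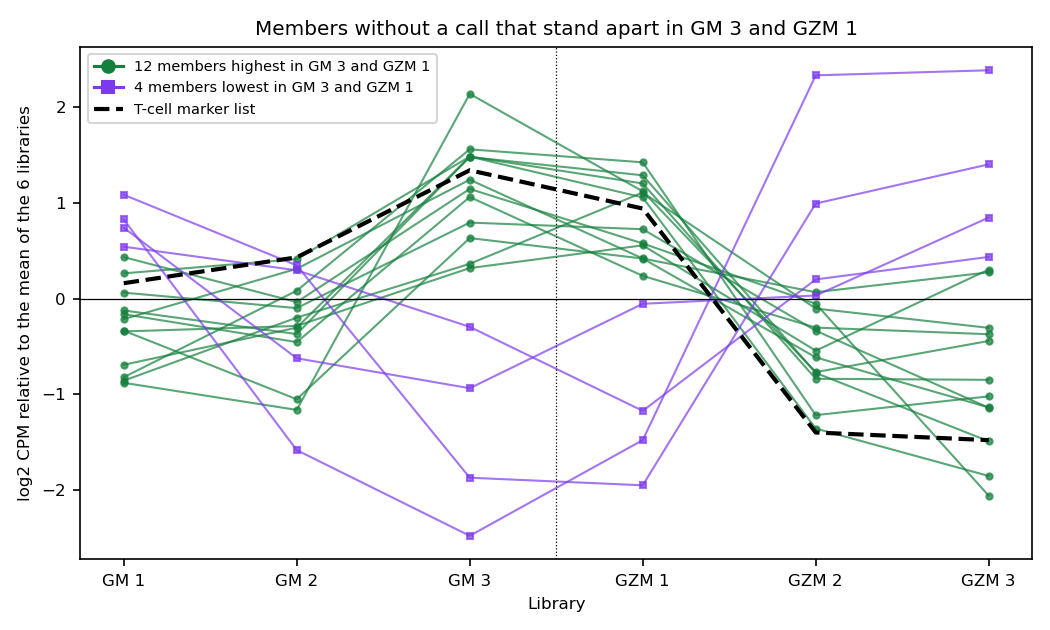
Log2 of (CPM + 0.25), centred over the 6 libraries, for genes that did not pass. They were highest (circles, 12 genes) or lowest (squares, 4 genes) in both GM 3 and GZM 1, and were chosen by that pattern. Lines join the values of 1 gene. The dashed line is the mean of the T-cell marker list on edgeR's log2 CPM scale. That scale adds a different small count, so depths of line and circles compare only roughly. Like the circles, the T-cell list is highest in GM 3 within GM (1.34) and in GZM 1 within GZM (0.94). It lies at -1.40 and -1.48 in GZM 2 and GZM 3, where not all circles fall as far. Ccl6 stood at 293 and 338 CPM there, above its 222 and 135 CPM in GM 1 and GM 2.

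The make-up of the family within a library does not depend on the TMM factors. Ccl9 took 15.0%, 11.3% and 22.9% of all ligand counts in GM 1, 2 and 3 and 49.95%, 74.0% and 74.8% in the GZM libraries. The share of Ccl2 fell from 12.7% ± 6.99 to 0.857% ± 0.149 (SD, n = 3 each). That of Cxcl10 fell from 9.84% ± 5.75 to 0.950% ± 0.259, and neither overlapped between groups. All shares in a library have the same total, so a larger share of Ccl9 by itself lowers those of the other ligands. The share of Ccl3 also fell without overlap, from 0.976% ± 0.388 to 0.391% ± 0.0828, though its log2 fold change was 0.07. The falls in share of Ccl2 and Cxcl10 therefore do not measure the size of their change. Per kilobase of exon, which allows genes to be compared, the GM means of Ccl2, Ccl6 and Ccl9 were close (194 ± 78.6, 192 ± 112 and 183 ± 108 CPM per kilobase). Their order differed between libraries. Of ligand counts per kilobase they took 26.9%, 9.36% and 9.75% in GM 2, and 9.28%, 22.6% and 22.0% in GM 3. In GZM Ccl9 stood at 1799 ± 726 CPM per kilobase, followed by Ccl6 (244 ± 29.5) and Cxcl1 (118 ± 58.3). An exact permutation test of 3 libraries against 3 cannot give a p below 0.10, so these shares are given without one. Summed over all 33 ligands the level was 1369 ± 308 CPM in GM and 3393 ± 786 CPM in GZM. The ligand sums did not overlap on this scale. Scaled by library totals the ligand sums overlapped (1803 ± 192 and 2548 ± 637 CPM). Without Ccl9 the ligand sums were 1133 ± 169 and 1071 ± 151 CPM on the TMM scale, which overlapped, and 1499 ± 49.4 and 802 ± 112 CPM by library totals.

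**Figure D4:**
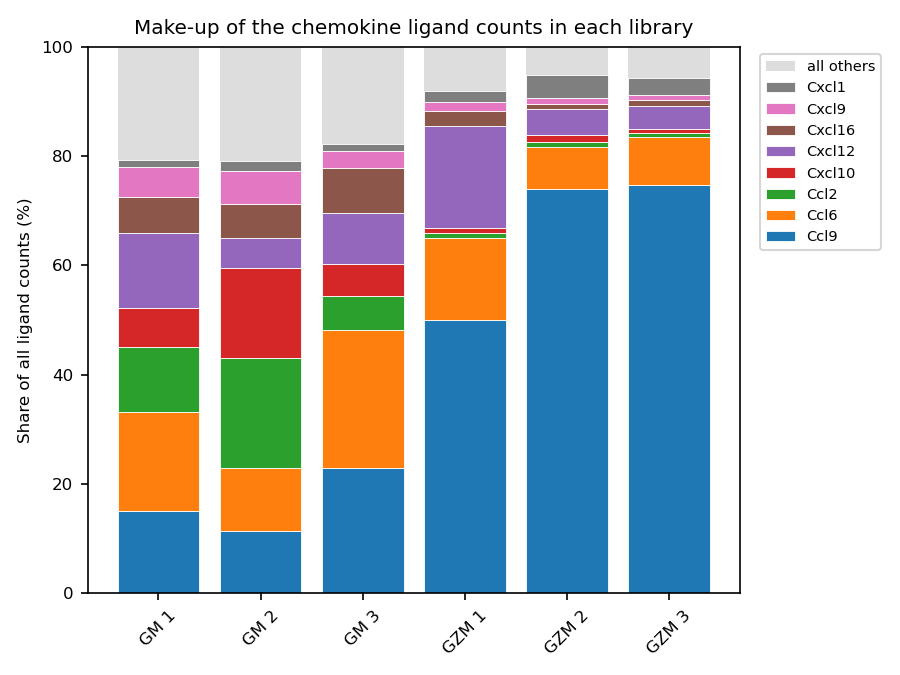
Share of all ligand counts taken by 8 named genes in every library, in percent, with the other ligands in grey. Ccl9 widens from 11.3% to 22.9% in GM to 49.95% to 74.8% in GZM.

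Chemokine genes lie in groups along the chromosomes, and some close neighbours went in opposite directions. In the table's coordinates, Ccl2 (chromosome 10, 69412017 to 69413870), Ccl7, Ccl11 (69434941 to 69439575) and Ccl12 (69476775 to 69478462) follow each other on the plus strand. Ccl11, the gene between Ccl7 and Ccl12, had a log2 fold change of 2.39, whereas Ccl2, Ccl7 and Ccl12 had -2.52, -2.35 and -2.86. On the same chromosome Ccl9 (70783424 to 70788309) rose by 3.30, whereas Ccl6 (70797124 to 70802782), Ccl5, Ccl3 and Ccl4 around it did not pass. In the receptor group on chromosome 8, Ccr3 (133029625 to 133040997), which rose, lies next to Ccr1 (132996649 to 133002201), which fell. The groups overlapped for Ccr3, and its call held in 7 of the 15 alternatives. On chromosome 14 Cxcl1 rose (2.53) beside Cxcl2, Cxcl3 and Cxcl6, which did not pass. Of these, Cxcl2 had a log2 fold change similar to that of Cxcl1 but a wide error (2.27 ± 1.08 SE). On chromosome 19 Cx3cl1 fell between Ccl17, which was not tested, and Ccl22, which did not pass. Differences between neighbours were not tested. Gene models of 8 of the 53 genes overlap another gene in the table, among them Cxcl10 and Cxcl11, which both overlap Art3, and Ccl3, Ccl27, Cxcl16, Cxcr6 and Ackr4. Whether the counting used strand is not given in the sources used here, so reads of these genes may be shared.

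**Figure D5:**
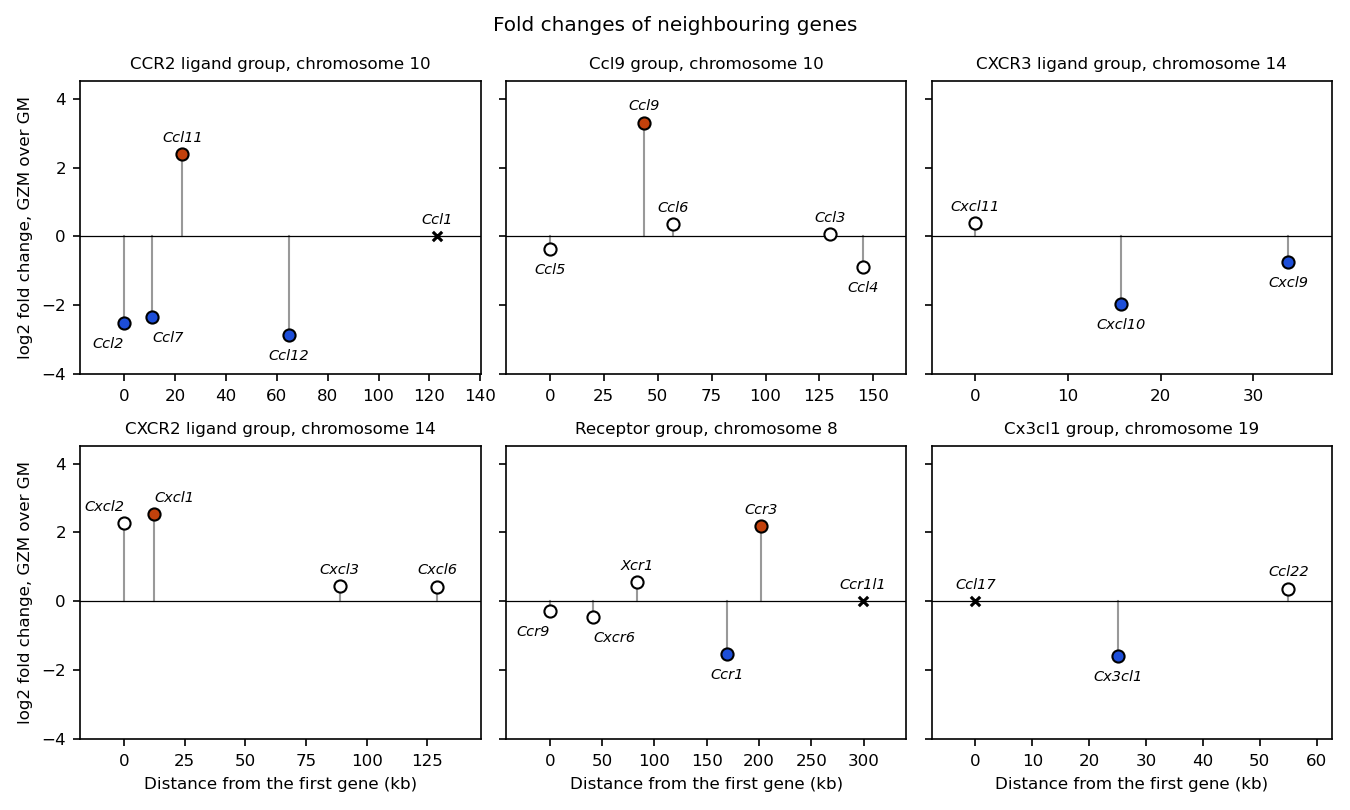
Log2 fold change (GZM over GM) against distance in kilobases from the first gene of 6 groups of neighbouring genes, with orange points for genes that rose, blue for genes that fell, white for genes that did not pass and crosses at 0 for genes not tested. Ccl11 points up at 2.39 among 3 genes at -2.86 to -2.35, and Ccr3 at 2.18 lies next to Ccr1 at -1.52.

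The remaining ligands and receptors were low. Ccl20, Ccl22, Cxcl14, Ccr6 and Ccr9 were tested at group means of at most 3.68 CPM and did not pass, with log2 fold changes from -0.99 (Ccr6) to 0.37 (Ccl22). The 9 genes under the low-count filter were Ccl1, Ccl17, Ccl26, Ccl28, Ackr2, Ccr1l1, Ccr4, Ccr8 and Ccr10, with 18 to 60 counts over the 6 libraries. Ccr8, a receptor of regulatory T cells, had 8, 26 and 18 counts in GM and 4, 1 and 3 in GZM, and its ligand gene Ccl1 had 12, 17 and 10 counts against 3, 2 and 6. In edgeR without the filter neither passed (-1.73 ± 0.73 SE, adjusted p = 0.0998, and -0.90 ± 0.64, adjusted p = 0.342), and the other 7 had adjusted p values of 0.241 or more.

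Beyond the family, 19 of 32 tested genes that act below chemokine receptors fell, where 21.7% of all tested genes fell. Their median log2 fold change was -0.79. With library totals 30 of them fell (median -1.61), where 59.5% of all genes did. Gnai2, the G protein subunit that most chemokine receptors engage, fell by 0.65, the phosphoinositide kinase subunits Pik3cg and Pik3r5 by 1.12 and 1.05, and the exchange factor Vav1 by 1.15. The receptor kinases Grk2, Grk3 and Grk6 and the arrestin Arrb1, which switch receptors off, fell by 0.65, 1.49, 1.06 and 1.39. Many of these genes are typical of leukocytes, whose macrophage markers fell as given above, and the part of cell number was not tested. Among 18 tested inducers of chemokine genes 5 fell and 4 rose (median -0.05), a share near the 44.0% of all tested genes that changed. With library totals 13 fell and 1 rose (median -0.88). Interferon gamma (Ifng), at 2.27 ± 0.549 CPM in GM and 0.265 ± 0.381 CPM in GZM, fell by 3.16 ± 0.83 SE (adjusted p = 0.0178). It was near the floor in GZM, at 0.702, 0.0943 and 0 CPM, so the size of its fall is imprecise. Irf1 and Irf8, which act in the interferon gamma response, fell by 1.28 and 0.97. Il1b fell by 0.80 while its receptor gene Il1r1 rose by 1.84. Jun, Tnfrsf1a and Nfkbia rose by 1.01, 0.76 and 0.60, values that became 0.17, -0.07 and -0.24 with library totals, where none of the 3 passed.

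Among 14 genes that trim, shed, hold or modify chemokines and their receptors 8 rose and 1 fell (median 0.74, and -0.06 with library totals, where 4 rose and 3 fell). Of all tested genes 22.2% rose and 21.7% fell, and with library totals 9.2% rose and 59.5% fell. Dpp4, the peptidase that cuts the ends of CXCL10 and CXCL12, rose from 36.0 ± 14.4 to 214.7 ± 49.3 CPM (2.58, adjusted p = 0.00236). The heparan sulfate proteoglycans Sdc4 and Sdc2, which can hold chemokines at the cell surface, rose by 2.01 and 1.93, and the tyrosine sulfotransferase Tpst1, which modifies receptor tails, by 1.69. Adam17, a protease that sheds CX3CL1, fell by 0.94. Of 13 tested relatives outside the family 2 rose and 5 fell (2 and 9 with library totals, where 59.5% of all tested genes fell). Rarres2, which encodes the chemoattractant chemerin, rose from 127.7 ± 74.7 to 648 ± 114 CPM (2.34, adjusted p = 0.00459), while its receptor gene Cmklr1 fell by 0.60 (adjusted p = 0.0461). All 8 listed hepatocyte markers also rose, as given above. The part of cell number in the rises of Dpp4, Sdc2, Sdc4, Tpst1 and Rarres2 was not tested. The complement receptors C5ar1 and C3ar1 fell by 1.03 and 1.41. The platelet chemokine gene Pf4 measured 11.4 ± 4.17 CPM in GM and 11.2 ± 2.38 CPM in GZM (-0.02 ± 0.33 SE, adjusted p = 0.959).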

How the data were processed

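Messenger RNA was measured in 6 rat liver libraries, grouped and numbered by their titles. Per the labels' protocols, RNA was enriched for polyadenylated transcripts and made into strand-specific, paired-end libraries. The aligner and counter, and whether counting used strand, are not given in the sources used. Per the submitters' processing notes the build is mRatBN 7.2, but positions in the table reach 282724300 on chromosome 1, beyond that build, so the build of the table's coordinates is unsettled and they were not set against GRCr8. The columns named ZGM were matched to the GZM samples.

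The counts deposited by the authors are whole numbers per gene, not normalized. Their FPKM values are counts scaled by exon length and library total, per the file headers, and all 195738 were recomputed from the counts within 0.01. The exon length column is a size in bases, per the file headers.

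Tests used edgeR 4.0.16 (R 4.3.3): quasi-likelihood, TMM factors, default low-count filter, no covariate, Benjamini-Hochberg over 14298 genes, threshold 0.05. Standard errors are those implied by the quasi-F value. TMM factors ran from 1.17 to 1.43 in GM and from 0.715 to 0.793 in GZM. The script was tested on simulated data. Replicates differed by more than sampling noise (chi-square per degree of freedom of at least 10.5). The members, the 14 marker and 4 pathway lists and the alternatives were chosen with earlier results of these data known. Any gene of the family could be named, and other genes came from those lists; 2 genes are counted but not reported here. Alternatives were DESeq2 1.42.0, limma 3.58.1 on log2(FPKM + 0.1) or log2(FPKM + 1), other scalings, no filter, a replicate block and leaving out libraries. Low counts limit precision for genes under about 1 CPM. Figures used matplotlib 3.10.9.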

Additional observations from a re-analysis of the deposited data

How the results depend on the processing

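Of the 21 called genes of the family, 10 kept direction and call in all 15 alternatives (among them Ccl2, Ccl7, Ccl9, Ccl12, Ccr1, Cx3cl1, Cxcl9, Cxcl10 and Xcl1), 21 in DESeq2, 17 with library totals and 13 in every analysis that left out 1 library. No called gene changed sign in any alternative. With library totals, 4 family genes rose and 0 receptors did (1 at an unadjusted p under 0.05 in edgeR; DESeq2 on its own size factors called 3), the medians were -0.81 (ligands) and -1.21 (receptors), and 9828 of all genes changed, 1315 higher and 8513 lower. In limma on log2(FPKM + 0.1), also scaled by library totals, 3 family genes rose, all 3 ligands, 0 receptors rose and 7 fell, the medians were -0.84 and -1.15, and 9830 genes changed (1243 higher, 8587 lower). With a pseudocount of 1, 4 rose, 20 fell, 0 receptors rose and 8 fell, the ligand median was -0.75, and 9913 genes changed (1324 higher, 8589 lower). Without its filter 13 family genes changed, 1 higher, a ligand, with 3 receptors changed and 0 higher, medians of -0.84 and -1.15, and 677 genes higher and 6345 lower overall. Limma also lost Ackr3, Ackr4 and Ccr3 in each of its 3 settings and Ccl27 with a pseudocount of 0.1.

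Genes that did not pass turned sign in 4 analyses on library totals: with edgeR Ccl3 -0.76, Ccl6 -0.43, Ccl20 -0.81, Ccl22 -0.44, Cxcl3 -0.45, Cxcl6 -0.44, Cxcl11 -0.47, Cxcl14 -0.52, Cxcr5 -0.50 and Xcr1 -0.25. In limma with 0.1, filtered or not, they were in the same order -0.80, -0.33, -0.84, -0.46, -0.50, -0.27, -0.41, -0.50, -0.52 and -0.28, and with 1 they were -0.75, -0.32, -0.57, -0.22, -0.36, -0.25, -0.39, -0.35, -0.25 and -0.12. None of these had passed on the TMM scale, and the shift of all genes by -0.84 lies behind the edgeR values by construction.

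Leaving out 1 library gave 13 to 20 called family genes (4 to 9 higher, 9 to 13 lower), 11 to 15 ligands, 2 to 5 receptors (0 to 3 higher, against 2 to 3 at an unadjusted p under 0.05 in edgeR), 3770 to 6864 of all genes (2103 to 3523 higher, 1667 to 3341 lower), and medians of -0.39 to 0.16 for ligands and -1.02 to -0.03 for receptors. Genes that turned sign ranged from -0.17 to 0.36 (Ccl3), -1.76 to 0.59 (Ccl5), -1.44 to 0.73 (Ccl19), -0.39 to 0.27 (Ccl20), -1.49 to 1.32 (Ccl21), -0.12 to 1.16 (Cxcl3), -0.02 to 0.57 (Cxcl14), -1.10 to 0.20 (Ccr9), -0.64 to 0.11 (Cxcr2), -0.71 to 0.21 (Cxcr4), -1.90 to 0.46 (Cxcr6) and -0.06 to 0.95 (Xcr1). Without both GM 3 and GZM 1 the ligand median was 0.27, and Ccl20 (-0.42), Ccl21 (0.49) and Cxcr4 (0.00) turned sign. The cause was not tested. The replicate number was not taken to pair the samples. The deviations of same-numbered libraries from their group means correlated at -0.14, 0.16 and -0.274. With only 3 libraries per group, these values cannot settle whether same-numbered samples were paired. With the replicate block, 5166 of all genes changed, 8 family genes rose and 12 fell, Cx3cr1 no longer passed (adjusted p = 0.0848), Ccl20 was at -0.04 and Ccl21 at 0.00.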
